A study of Homo sapiens with 3 samples.

Results

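The 9 genes described here encode the core of the synaptic vesicle release machinery: VAMP2, SNAP25, STX1A, SYT1, SYT4, RAB3A, SYP, SYN1 and SV2A. They were chosen by symbol, all 9 were found, and they are 9 of the 33538 genes counted in each library. The cells came from blood vessel organoids, in which vessel-lining and vessel-wall cells form networks within mesenchyme, harvested at day 45. All of them derived from the human embryonic stem cell line H1, which is established, with the cassette NEUROD1-P2A-GFP under doxycycline control put in by a PiggyBac transposon, so the organoids without induction carried the cassette too. NEUROD1, a transcription factor, pushes cells towards a neuronal fate. The 3 libraries, each the only one of its group, had no induction, 15 days or 45 days of it, with doxycycline at 1 µg/ml. Which 15 days were induced is not in the labels, nor is how many clones of the line were used. BDNF and NT-3, which sustain neurons, were given to all organoids from day 15 on. Each library was made from 5 to 6 pooled organoids, so nothing separates the group from the pool and the capture, and no test between groups was possible.

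In a neuron, a synaptic vesicle fuses with the plasma membrane when a SNARE protein of the vesicle zips together with SNARE proteins of the target membrane. Calcium that enters at the terminal is read by synaptotagmins on the vesicle, which then trigger fusion, while Rab3 proteins, synapsins and other vesicle proteins hold, guide and regulate the vesicle pool. Neurons switch many of these genes on together as they mature, whereas other cells use related family members for their own secretion.

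Promoter sequences show what the members share and do not share at the DNA level, and were taken from RefSeq (GRCh38.p14; 8 of the 9 members matched, all but SNAP25). The windows run from 250 bases before to 50 bases after a gene's start as RefSeq places it. In the GENCODE 29 annotation used for gene coordinates, the SYT1 window, both VAMP2 windows and the SV2A window lie inside the gene; that of SV2A (chr1:149906942-149907241) is inside a minus-strand gene annotated from 149903318 to 149917882. What follows describes these windows, not every start a gene can have. The RE1 element is the site of REST, a repressor that keeps neuronal genes silent in other cells, and its parts were searched on both strands as CAGCACC, as the other part GGACAG and as both parts joined with any bases at 2 positions between them. SYN1 is shown for its joined RE1 letters, SYT1 as the member described at most length outside neuron-like cells, and RAB3A and SYT4 for the short stretch around a single part. Capitals mark RE1 letters and, in SYN1, also TGACGTCA, the cAMP response element. In SYT1 and SYT4 the capitals are the reverse complement of a searched part.
SYN1 (chrX:47619944-47620107, minus strand, upstream of the first annotated exon): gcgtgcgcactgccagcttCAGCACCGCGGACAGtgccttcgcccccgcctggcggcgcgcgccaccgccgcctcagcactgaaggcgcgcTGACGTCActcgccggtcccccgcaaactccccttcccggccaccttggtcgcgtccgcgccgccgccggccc
SYT1 (chr12:78864524-78864668, plus strand, inside the annotated gene but in no exon): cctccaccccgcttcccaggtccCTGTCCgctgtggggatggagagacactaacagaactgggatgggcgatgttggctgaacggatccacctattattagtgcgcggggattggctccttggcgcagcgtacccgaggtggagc
RAB3A (chr19:18204241-18204268, minus strand): ctccccgaggcGGACAGgaggcggacga
SYT4 (chr18:43277555-43277583, minus strand): ggaggggggcaGGTGCTGatttcagccct
The joined RE1 letters were in the SYN1 window alone among the members, and in 18 of 35116 promoters (0.0513%). The part GGACAG was in the windows of SYT1, RAB3A, SYN1 and SV2A and in 20.5% of all promoters, and CAGCACC in those of SYT4 and SYN1 and in 7.75%. The E-box CAGATG, a letter pattern bound by NEUROD1 and related factors, was in the windows of RAB3A, SYN1 and SV2A and in 14.7% of promoters. TGACGTCA was in the SYN1 window and in 1.85% of promoters. SYP, STX1A and both VAMP2 windows held none of the searched letters. SYN1 lies on chromosome X (47571898 to 47619943), SYT1 on chromosome 12 (78863993 to 79452008), RAB3A on chromosome 19 (18196784 to 18204074) and SYT4 on chromosome 18 (43267878 to 43277650), in GRCh38. A match is a description of letters in the window and not a measured binding site.

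Barcodes passed with 1000 or more UMIs (unique molecular identifiers, 1 per captured transcript), 500 or more genes and no more than 20% mitochondrial UMIs, and doublets were removed. This left 8230 uninduced cells, 5078 of the 15 day library and 8900 of the 45 day library, with medians of 5148, 7295 and 5555 UMIs and of 4.61%, 3.81% and 2.98% mitochondrial UMIs. The kit reads the 3′ ends of transcripts, so levels are given as CPM, a gene's UMIs scaled to the same total in every sum of cells, and are compared for the same gene between cells, not between genes. Intervals are 95% intervals and cover counting error only. Between 10 and 25 kept cell barcodes without induction were also kept in an induced library, and 9 were kept in both induced libraries. NEUROD1 itself was at 1.51 CPM (1.20 to 1.89) in the uninduced, 1.49 CPM in the 15 day and 45.9 CPM (44.1 to 47.7) in the 45 day library, so the library labelled 15 days held no more NEUROD1 than the uninduced one. The files hold no entry for the cassette, whose transcript can end outside the annotated gene, and the labels do not date the 15 days, so this count checks that label neither way.

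Cells were clustered without the 9 genes and without the wider release lists, and clusters were named from marker sets. Clusters 19 and 20 were neuron-like. They held 0 of 8230 cells without induction, which allows a share of up to 0.0365%. At 15 days they held 303 cells, or 5.97% (5.33 to 6.65), and at 45 days 319 cells, or 3.58% (3.21 to 3.99). Cluster 20 met all 15 neuron markers and was led by NEFL and PRPH, which encode neuronal intermediate filaments, together with RTN1 and NRN1. Cluster 19 met 14 of 15 neuron markers, but none of them was among its top 10 genes, which included NEUROD1, HRK, INSM1, HES6 and NHLH1. Its cells were shallow: the median was 1965 UMIs at 15 days, far below that library's median of 7295 UMIs, and 3541 UMIs at 45 days, against 25544 and 18805 UMIs in cluster 20. The neuron-like values are therefore also given by cluster.

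All 9 genes were higher in both induced libraries than in the uninduced one, and all 9 stood in the same order, with 15 days above 45 days and 45 days above none. The share of all genes in this order was not counted. Over all genes compared, the median log2 ratio to none was 0.20 at 15 days and 0.14 at 45 days, and that of 45 to 15 days was -0.06. Among the SNARE genes, SNAP25, whose product joins the SNARE bundle from the plasma membrane, was at 5.72 CPM without induction (291 UMIs), 68.5 CPM at 15 days (3091 UMIs) and 28.2 CPM at 45 days (1553 UMIs). That is 12.0-fold (10.6 to 13.6) above the uninduced library at 15 days and 4.93-fold (4.35 to 5.61) at 45 days. VAMP2, the vesicle SNARE, was at 134, 241 and 222 CPM, which is 1.80-fold and 1.66-fold, the smallest folds of the 9. VAMP2 thus stood apart from SNAP25 in being well counted before any induction. STX1A, the syntaxin of the plasma membrane, was at 3.62, 7.98 (7.18 to 8.85) and 7.54 CPM (6.83 to 8.30), so its intervals at 15 and 45 days overlapped.

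SYT1, the calcium sensor for fast release, was at 19.6 CPM (996 UMIs), 108 CPM (4859 UMIs) and 79.3 CPM (4364 UMIs) in that order of libraries. The folds were 5.50 (5.14 to 5.90) at 15 days and 4.05 (3.78 to 4.34) at 45 days. SYT4, a synaptotagmin found on dense-core and other vesicles, was at 7.73, 30.5 and 16.8 CPM. RAB3A, a small GTPase that attaches to vesicles, was at 8.38, 80.9 and 46.1 CPM, or 9.65-fold (8.73 to 10.7) and 5.50-fold (4.96 to 6.11) above none.

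Of the proteins that mark the vesicle itself, SYP, the membrane protein synaptophysin, was at 2.38, 40.0 and 24.9 CPM, which is 16.8-fold (14.0 to 20.4) at 15 days and 10.5-fold (8.70 to 12.7) at 45 days. SYN1, the synapsin that tethers vesicles to each other and to actin, was at 1.36, 8.34 and 6.74 CPM. SV2A, a vesicle membrane glycoprotein, was at 13.9, 37.6 and 26.8 CPM. The library values of all 9 genes thus stood in 1 order, with folds at 15 days between 1.80 for VAMP2 and 16.8 for SYP. In summed libraries, fewer cells of a type and less RNA per cell cannot be told apart.

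**Figure D1:**
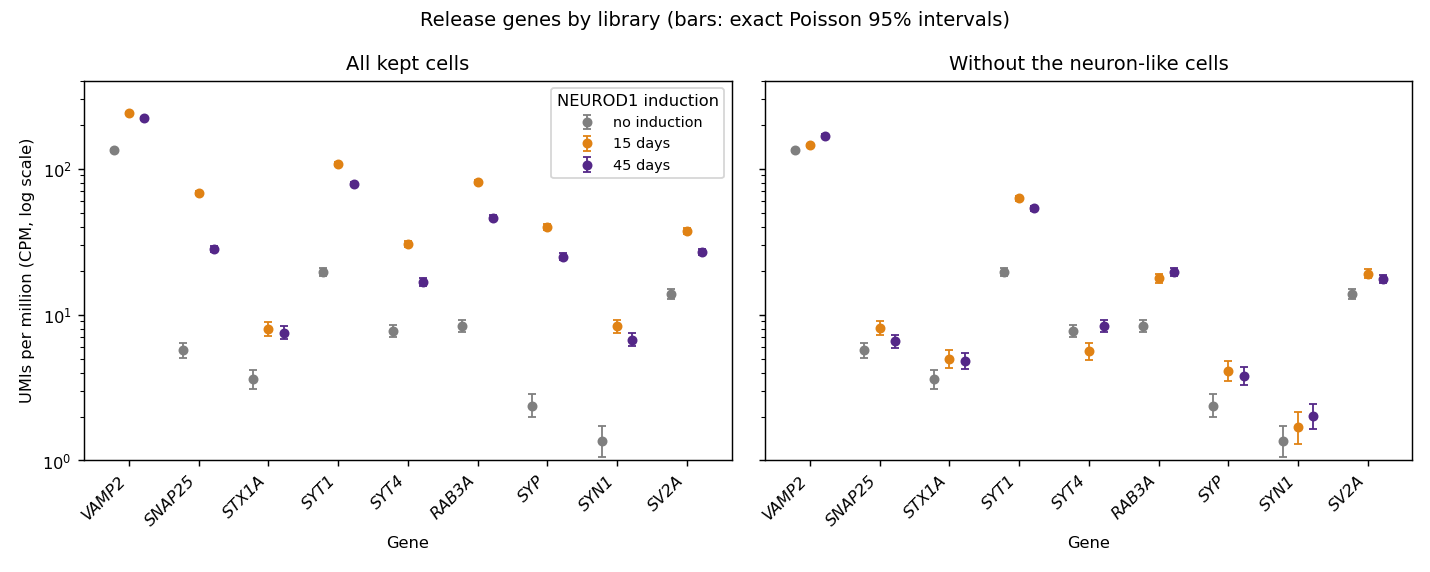
Level of each of the 9 genes as scaled UMIs (CPM, log axis) in the libraries with no induction, 15 days and 45 days; the left panel holds all kept cells and the right panel the cells outside the neuron-like clusters, and bars are exact Poisson 95% intervals. For SNAP25 the 3 points over all cells are at 5.72, 68.5 and 28.2 CPM, and outside neuron-like cells at 5.72, 8.09 and 6.56 CPM, whereas SYT1 outside them is at 19.6, 63.0 and 53.5 CPM.

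A gene was counted as called when log2 of its CPM with 5 CPM added was at least 2-fold apart, among genes that reached 10 CPM on either side of the comparison. The rule describes size and is not a test. At 15 days 6 of the 7 members that reached 10 CPM were called higher than without induction (SNAP25, SYT1, SYT4, SYP, RAB3A and SV2A), against 4.42% of all genes compared. At 45 days 4 of 7 were called higher (SNAP25, SYT1, SYP and RAB3A), against 1.69% of all genes. SNAP25 was the 1 of 7 members called lower at 45 days than at 15 days, at 0.412-fold (0.387 to 0.438), against 1.71% of all genes. The remaining members, SYN1 and STX1A, stayed below 10 CPM in all libraries. The 15 day and 45 day comparisons share the uninduced library. Median-of-ratios scaling, in place of library totals, shifts every log2 ratio of this comparison at 15 days by 0.12, and those between neuron-like and other cells by 0.185 and 0.20.

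The neuron-like cells held 11.8% of all UMIs at 15 days and 5.77% at 45 days, but most UMIs of some members. They gave 91.0% of SYP UMIs at 15 days and 85.6% at 45 days, and 89.6% and 78.1% of SNAP25 UMIs. They gave 82.2% and 72.0% of SYN1 UMIs, 80.6% and 59.8% of RAB3A UMIs, and 83.8% and 52.9% of SYT4 UMIs. For SYT1 they gave 48.4% and 36.5%, for VAMP2 46.8% and 28.2%, for STX1A 45.3% and 39.8%, and for SV2A 55.1% and 38.4%. SYT1, VAMP2 and STX1A thus had most of their UMIs in cells that were not neuron-like in both induced libraries.

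Within each induced library all 9 members were called higher in neuron-like than in other cells, against 18.9% of genes at 15 days and 20.8% at 45 days. SYP was at 309 CPM in neuron-like and 4.10 CPM in other cells at 15 days, and at 370 and 3.80 CPM at 45 days, which is 75.4-fold and 97.5-fold. SNAP25 was at 521 against 8.09 CPM and at 382 against 6.56 CPM, or 64.4-fold and 58.3-fold. These are the members that set neuron-like cells furthest apart. RAB3A was at 553 and 478 CPM in neuron-like cells, 31.2-fold and 24.3-fold above other cells. SYN1 was at 58.1 and 84.2 CPM there, 34.5-fold and 42.0-fold above, and SYT4 at 217 and 155 CPM, 38.7-fold and 18.4-fold above. The other 4 members differed less between neuron-like and other cells, with folds between 6.19 and 10.8. SV2A was at 176 and 178 CPM in neuron-like cells (9.18-fold and 10.2-fold), and SYT1 at 443 and 502 CPM (7.02-fold and 9.38-fold). VAMP2 was at 958 and 1082 CPM there (6.60-fold and 6.40-fold), and STX1A at 30.7 and 52.0 CPM (6.19-fold and 10.8-fold).

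**Figure D2:**
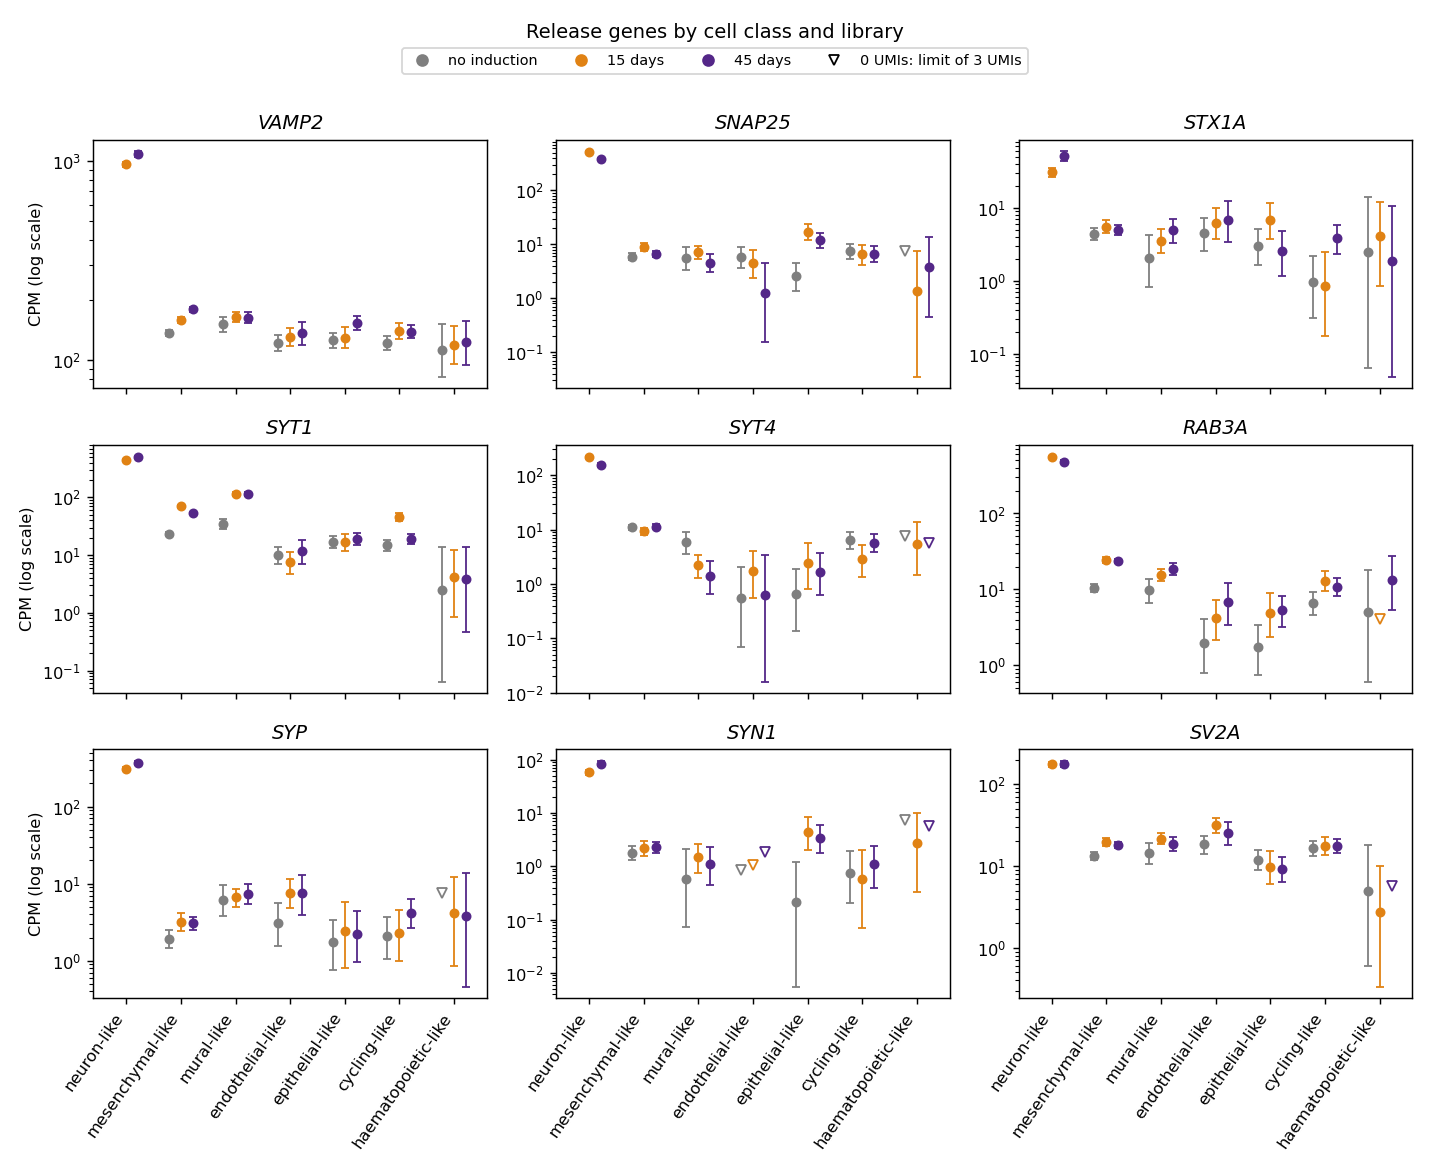
Level of each member in scaled UMIs (CPM, log axis, 1 panel per gene) in the named cell classes other than liver-like and in each library, with exact Poisson 95% intervals; open triangles mark the limit of 3 UMIs where none was counted. Neuron-like cells lie above every other class drawn in all 9 panels, while SYT1 in mural-like cells reaches 114 CPM in both induced libraries against 34.9 CPM without induction.

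Between the induced libraries, 0 of 9 members were called apart in neuron-like cells, against 3.19% of genes. SNAP25, lower in the 45 day than in the 15 day library, was at 382 CPM (361 to 404.5) and 521 CPM (502 to 541) in their neuron-like cells. These cells were 3.58% and 5.97% of the 2 libraries. The part of each in the library level was not tested. Cluster 20 gave 93.5% of neuron-like UMIs at 15 days and 73.9% at 45 days, so neuron-like sums rest mainly on it. In cluster 20 alone 0 of 9 members were called apart between the induced libraries, against 2.5% of genes. In cluster 19 alone STX1A was the 1 member called, at 31.9 CPM at 15 days and 90.4 CPM at 45 days, 2.83-fold (1.496 to 5.92) apart, against 13.5% of genes. NEUROD1 in cluster 19 was at 98.7 CPM and 1207 CPM, and in cluster 20 at 5.43 and 594 CPM, in the same order of libraries; its part in these values was not tested.

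Of the 9 members, 8 were higher in cluster 20 than in cluster 19 in both libraries, by 1.43-fold to 3.00-fold at 15 days and 1.31-fold to 2.80-fold at 45 days, and STX1A was not. At 15 days SNAP25 (542 against 221 CPM) and SYT4 (227 against 75.5 CPM) were called higher in cluster 20 than in cluster 19, with 9.35% of genes called higher. At 45 days SNAP25 (460 against 164 CPM), SYT4 (182 against 76.0 CPM) and RAB3A (565 against 234 CPM) were called higher in cluster 20, with 10.7% of genes called higher. STX1A went the other way at 45 days, at 38.4 CPM in cluster 20 and 90.4 CPM in cluster 19, called lower where 9.46% of genes were. The part of the difference in depth between these clusters, given above, was not tested.

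To compare cells at 1 depth, each cell was thinned to 2000 UMIs, and 66 and 64 shallower neuron-like cells were left out. In the 237 neuron-like cells left at 15 days and the 255 at 45 days, VAMP2 had a UMI in 76.8% and 76.1% of cells, RAB3A in 53.6% and 47.1%, SNAP25 in 50.6% and 36.9%, SYT1 in 49.0% and 52.2%, and SYP in 44.7% and 50.2%. Without thinning, SNAP25 had a UMI in 72.6% and 58.0% of neuron-like cells, whose median depths were 9473 and 5455 UMIs. Endothelial-like cells served as background, though they held SNAP25 (5.93 CPM) and SYT1 (10.2 CPM) also in the uninduced library. In the induced libraries they had SNAP25 in 0.987% and 0.505% and SYT1 in 1.97% and 1.52% of thinned cells, with median depths of 8327 and 5788 UMIs. VAMP2 was in 24.3% and 23.2% of thinned endothelial-like cells, so a VAMP2 UMI does not mark a neuron-like cell. For 8 of 9 members the neuron-like interval lay above that of every other class in both libraries. STX1A was the exception, at 4.22% (2.04 to 7.62) of neuron-like cells at 15 days and 12.2% (8.41 to 16.8) at 45 days. How many of all genes have such separate intervals was not counted. By CPM, 18.9% and 20.8% of genes were called higher in neuron-like than in other cells.

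More of the members had a UMI per thinned cell in neuron-like cells than elsewhere. Whether members were found together more often than their single shares give was not tested. At least 3 of the 9 had a UMI in 73.0% of thinned neuron-like cells at 15 days (66.9 to 78.5; 173 of 237 cells) and in 72.6% at 45 days (66.6 to 77.9; 185 of 255 cells). In mural-like cells it was 1.34% and 1.08%, and in mesenchymal-like cells 0.408% and 0.511%. By cluster, it was 83.1% and 86.8% in cluster 20 and 43.3% (30.6 to 56.8) and 61.0% (52.4 to 69.1) in cluster 19. Thinning left out 65 of 125 and 63 of 204 cells of cluster 19, and 1 cell of cluster 20 in each library. The pooled shares thus lean towards cluster 20 and the deeper cells of cluster 19. Without thinning, all 9 members had a UMI in 28.7% and 29.6% of cells of cluster 20 and in 0 of 125 and 1 of 204 cells of the shallower cluster 19. The SNARE genes SNAP25, STX1A and VAMP2 all had a UMI in 2.53% and 3.92% of thinned neuron-like cells, and in 26.1% and 24.8% without thinning.

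**Figure D3:**
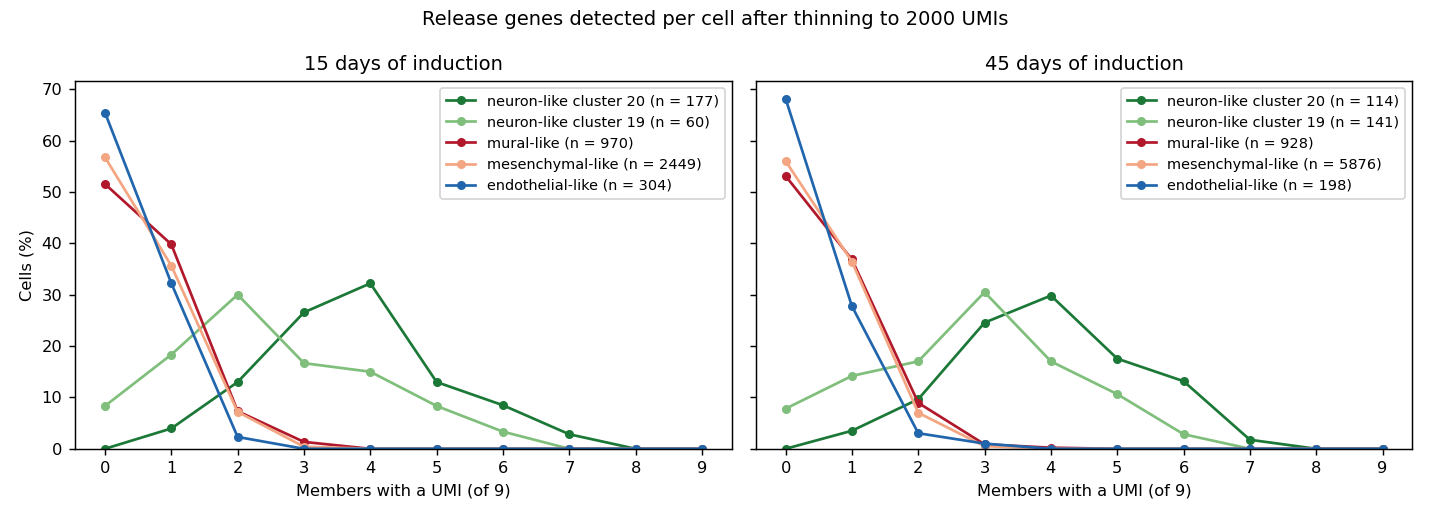
Percent of cells (vertical axis) with a given number of the 9 members detected (horizontal axis) after thinning each cell to 2000 UMIs, 1 panel per induced library, with lines for neuron-like clusters 20 and 19 and for mural-like, mesenchymal-like and endothelial-like cells. In cluster 20, 83.1% and 86.8% of cells hold 3 or more members, while in the 3 other classes drawn no more than 1.34% of cells do.

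Outside neuron-like cells the members differed in level between libraries to unlike extents. SYT1 was at 19.6 CPM (18.4 to 20.8) in the uninduced library, which held no neuron-like cells, and in the other cells of the 15 day library at 63.0 CPM (60.6 to 65.5) and of the 45 day library at 53.5 CPM (51.5 to 55.5). Without neuron-like cells SYT1 was the 1 member of 4 compared that was called higher than without induction at 15 days and at 45 days, at 3.22-fold (2.99 to 3.47) and 2.73-fold (2.54 to 2.94), against 1.96% and 0.753% of genes. The clusters that make up these cells differ in number between libraries. Over the 17 and 18 clusters with at least 50 cells in both libraries compared, the pooled folds were 2.74 and 2.33. With each of these clusters weighted by its share of UMIs in the uninduced library, SYT1 was 1.95-fold and 1.84-fold higher, which is 0.84 and 0.76 on the log2 scale and no longer called. RAB3A was at 8.38, 17.8 and 19.7 CPM, 2.12-fold (1.88 to 2.40) and 2.35-fold (2.09 to 2.63) higher by CPM, which is 0.77 and 0.88 on the log2 scale with 5 CPM added and not called, and 1.86-fold and 1.69-fold with the uninduced mixture of clusters. SNAP25 outside neuron-like cells was at 5.72, 8.09 and 6.56 CPM, SYP at 2.38, 4.10 and 3.80 CPM and SYN1 at 1.36, 1.68 and 2.01 CPM. SYT4 was at 7.73, 5.61 and 8.41 CPM, STX1A at 3.62, 4.95 and 4.82 CPM, SV2A at 13.9, 19.2 and 17.5 CPM and VAMP2 at 134, 145 and 169 CPM. The differences of SNAP25, SYP and SYN1 between libraries were thus far smaller once neuron-like cells were set aside.

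Outside neuron-like cells SYT1 was highest in the mural-like class. In mural-like cells, the pericyte and smooth muscle class, it was at 34.9 CPM (28.8 to 41.7) in the uninduced library, 114 CPM (107 to 122) in the 15 day library and 114 CPM (106 to 123) in the 45 day library. It was the 1 of 4 members compared there that was called, at 3.28-fold (2.71 to 4.01) and 3.27-fold (2.69 to 4.01), against 0.967% and 0.689% of genes. Its folds within the mural-like clusters 6 and 7 were 2.64 and 3.47 at 15 days and 2.35 and 4.30 at 45 days, and with the uninduced mixture of these clusters 3.03 and 3.28 (1.47 and 1.58 on the log2 scale), past 2-fold in both. In mesenchymal-like cells it was at 23.2, 70.2 and 54.5 CPM, the 1 of 5 members called, at 3.02-fold (2.75 to 3.33) and 2.35-fold (2.14 to 2.57), against 1.94% and 0.998% of genes. Different clusters hold most of this class: clusters 1, 3, 5 and 8 without induction (1094, 1064, 923 and 696 cells), clusters 0 and 4 at 15 days (866 and 487 cells) and clusters 0, 2 and 4 at 45 days (1577, 1384 and 1122 cells). Over the 7 mesenchymal-like clusters with at least 50 cells in both libraries the folds ran from 1.60 to 3.09 at 15 days, with a median of 1.78, and over 8 such clusters from 0.613 to 3.03 at 45 days, with a median of 1.81. Pooled over these clusters the folds were 2.33 and 2.02, and with their uninduced mixture 1.74 and 1.79, or 0.71 and 0.74 on the log2 scale, which are not called. In cycling-like cells SYT1 was at 14.8 CPM (11.7 to 18.5), 45.6 CPM (38.8 to 53.2) and 19.1 CPM (15.6 to 23.1), high as a class in the 15 day library alone. Cycling-like cluster 15 was at 25.3, 54.5 and 49.7 CPM, with 139, 158 and 132 cells. This cluster also met 5 of 12 mural markers. Cluster 11 was at 7.23, 16.1 and 8.30 CPM and cluster 16 at 17.3, 56.6 and 16.1 CPM, in the same order of libraries. The class folds were 3.08 and 1.29 pooled and 2.57 and 1.41 with the uninduced mixture of clusters. In endothelial-like cells it was at 10.2, 7.62 and 11.9 CPM. There 0 of 3 members compared were called, beside 77 of 9429 genes called higher at 15 days and 95 of 9527 at 45 days. With so few genes called, 0 of 3 sets the members apart from other genes in neither library. Haematopoietic-like cells had SYT1 at 2.51, 4.12 and 3.78 CPM. Among these classes SYT1 thus stood in an order of neuron-like, mural-like and mesenchymal-like above epithelial-like, endothelial-like and haematopoietic-like cells in both induced libraries, with cycling-like cells between mesenchymal-like and epithelial-like cells at 15 days and beside epithelial-like cells at 45 days (16.7 and 19.3 CPM in epithelial-like cells). The intervals of endothelial-like and haematopoietic-like cells overlapped in both, as did those of epithelial-like and endothelial-like cells at 45 days.

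By cell, SYT1 had a UMI in 6.25% of thinned mural-like cells without induction (4.26 to 8.80), 16.8% at 15 days (14.5 to 19.3) and 18.0% at 45 days (15.6 to 20.6). Unthinned shares were 17.4%, 44.6% and 39.3%, at median depths of 6010, 7485 and 5970 UMIs. In thinned mesenchymal-like cells the shares were 4.30%, 11.5% and 8.73%, at unthinned median depths of 4787, 6899 and 5318 UMIs. Endothelial-like cells, whose median depths were 6630, 8327 and 5788 UMIs, had 1.21%, 1.97% and 1.52%, and haematopoietic-like cells had 0 of 64 cells without induction, which allows up to 4.69%, and 1.16% and 1.28%. The SYT1 shares of mural-like and mesenchymal-like cells lay above those of these classes in the induced libraries. Endothelial-like cells had SYT1 also in the uninduced library, which held no neuron-like cells, at 10.2 CPM.

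As background, free RNA from 1 source keeps its genes in 1 ratio in the droplets it enters. The 6 neuron markers that were under 2 CPM without induction (PRPH, INA, ELAVL3, ELAVL4, STMN4 and RTN1; the limit was set after seeing the values) reached 0.456% to 2.19% of their neuron-like level in all other cells at 15 days and 0.316% to 2.61% at 45 days. Over all 10 neuron markers examined the highest was STMN2, at 8.70% and 6.83%. SYT1 reached 14.2% and 10.7% of its neuron-like level, VAMP2 15.2% and 15.6%, STX1A 16.2% and 9.27%, and SV2A 10.9% and 9.83%. SNAP25, at 1.55% and 1.72%, and SYP, at 1.33% and 1.03%, lay within the range of the 6 markers in both libraries. SYT4 (2.59% and 5.44%) and RAB3A (3.21% and 4.11%) lay above it in both, and SYN1 (2.90% and 2.38%) lay above it at 15 days and within it at 45 days; all of these lay below STMN2. In mural-like cells SYT1 reached 25.9% and 22.7%, with the 6 markers at no more than 2.23% and 5.14% and STMN2 at 17.2% and 16.6%. SYT1 was the 1 member above STMN2 there in both libraries. In mesenchymal-like cells it reached 15.9% and 10.9%, with the 6 markers at no more than 3.20% and 2.78% and STMN2 at 9.87% and 6.91%. In endothelial-like cells it reached 1.72% and 2.37%, with the 6 markers at no more than 0.887% and 0.845%. The 6 markers were picked for a low uninduced level and the members were not, so a member can lie above them by its uninduced level alone. SYT4, for example, was at 7.73 CPM without induction and 5.61 CPM in other cells at 15 days. SYT1 was at 19.6 CPM without induction, against 443 CPM in neuron-like cells at 15 days. The part of free RNA in these levels was not tested.

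**Figure D4:**
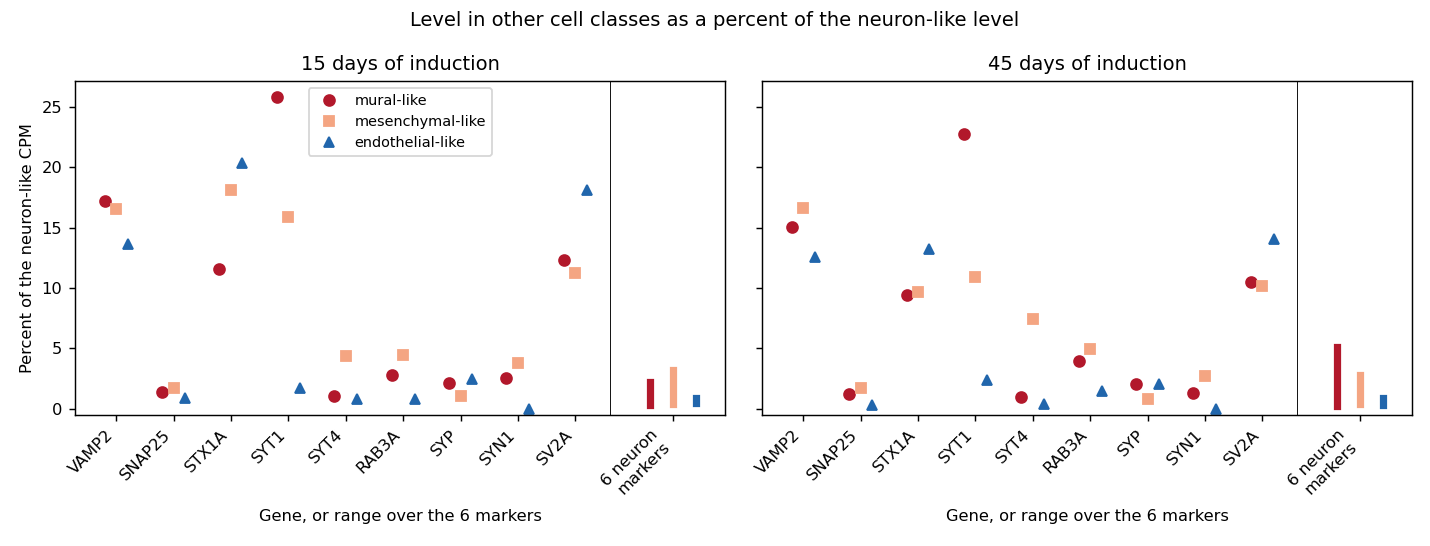
Level of each member in other cell classes as a percent of its neuron-like level (vertical axis) in mural-like (circles), mesenchymal-like (squares) and endothelial-like (triangles) cells, 1 panel per induced library, with bars for the range over 6 neuron markers at the right. SYT1 in mural-like cells is at 25.9% and 22.7%, where the 6 markers reach 2.23% and 5.14%; the triangles for SYT1 are at 1.72% and 2.37%.

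Cells with no UMI of any of those 6 markers were 97.9%, 71.8% and 85.2% of other cells. In them SYT1 was at 19.7, 64.6 and 52.1 CPM for none, 15 and 45 days, RAB3A at 8.26, 16.1 and 19.2 CPM, SNAP25 at 5.76, 7.66 and 6.46 CPM and SYP at 2.42, 3.72 and 3.76 CPM. Cells without a UMI of these markers can still hold free RNA, so these values are given as a description.

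Clusters differed widely in SYT1. Its highest level outside neuron-like cells was in mesenchymal-like cluster 4 without induction (58.6 CPM) and at 45 days (133 CPM), and in mural-like cluster 6 at 15 days (127 CPM). Cluster 4 is led by ANKRD37, STC2, VEGFA and PGK1, genes that rise in low oxygen, and met 0 of 12 mesenchymal markers against all other cells. Cluster 6 met 4 of 12 mural markers, among them the pericyte genes KCNJ8 and ABCC9. Cluster 7, which met 11 of 12 mural markers, had SYT1 at 26.6, 92.5 and 114 CPM. Endothelial-like cluster 13 had SYT1 at 8.61, 6.89 and 11.5 CPM, and mesenchymal-like cluster 1 was at 19.5, 31.2 and 12.0 CPM, lower at 45 days than without induction. SYT1 was higher than without induction in 15 of 17 clusters at 15 days (12 with the interval above 1) and in 14 of 18 at 45 days (8 with the interval above 1), with median folds of 1.96 and 1.46. RAB3A was higher in 15 of 17 clusters at 15 days (7 with the interval above 1) and 15 of 18 at 45 days (8 with the interval above 1). It was highest in cluster 4 of each library, at 32.4, 53.2 and 52.7 CPM. The other members were higher in 8 (SYT4) to 16 (VAMP2) of 17 clusters at 15 days. At 45 days they were higher in 8 (SYT4) to 17 (VAMP2) of 18, with 9 intervals above 1 for VAMP2. How many clusters this holds in for all genes was not counted. Over all genes compared outside neuron-like cells, the median log2 ratio to none was 0.17 and 0.11.

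**Figure D5:**
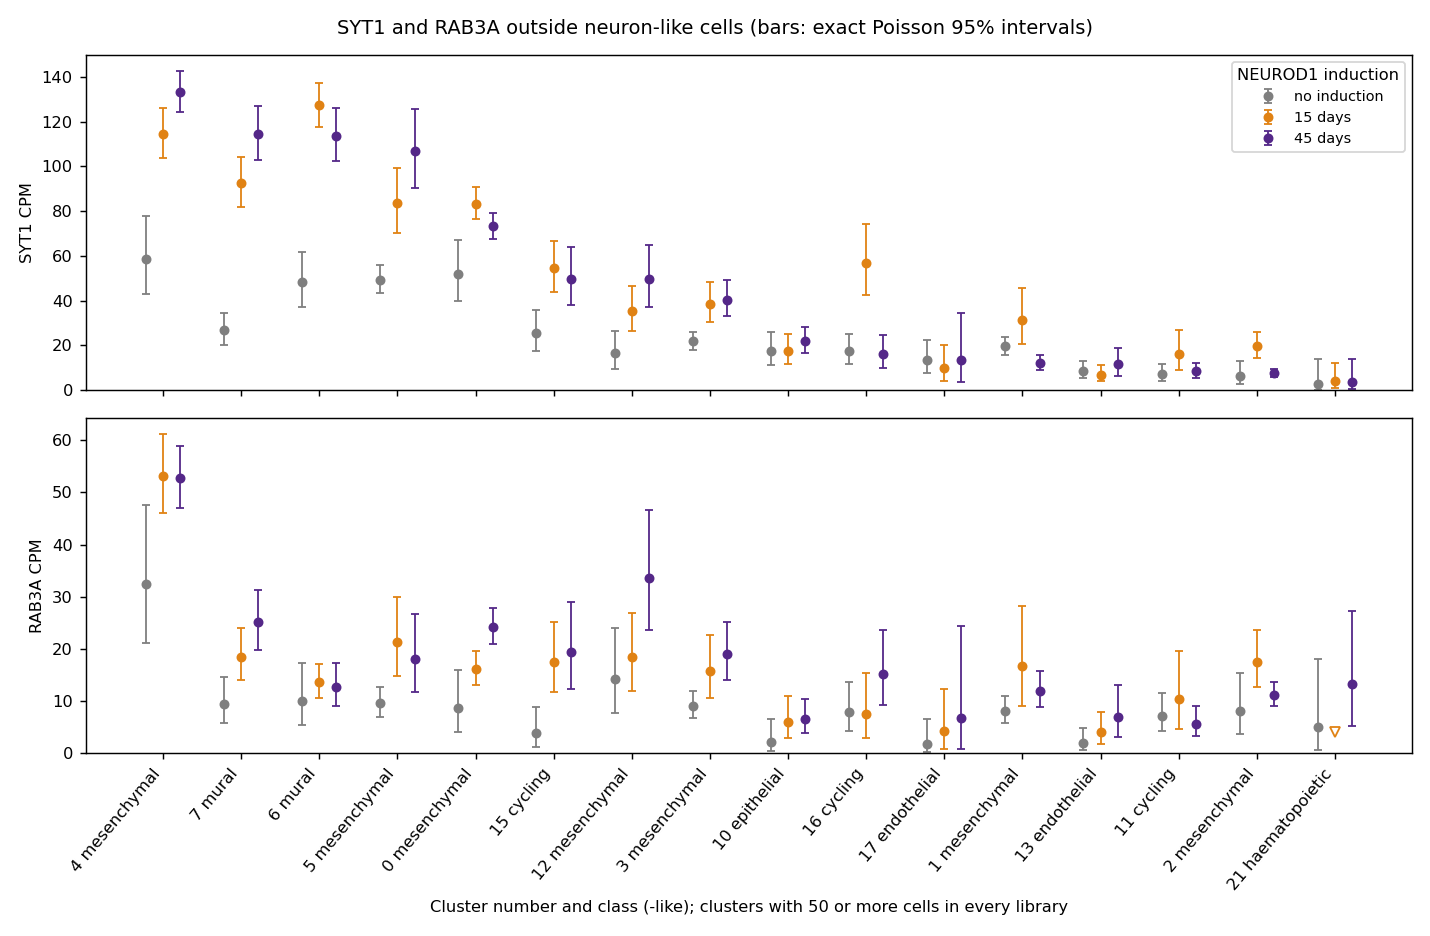
SYT1 (top) and RAB3A (bottom) as scaled UMIs (CPM) by cluster outside neuron-like cells, for the 16 clusters with at least 50 cells in every library, with exact Poisson 95% intervals. SYT1 in cluster 4 is at 58.6, 115 and 133 CPM for none, 15 and 45 days, and in endothelial-like cluster 13 at 8.61, 6.89 and 11.5 CPM.

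The cluster outside neuron-like cells with the highest level differed between the other members and could differ between libraries. Intervals of neighbouring clusters can overlap. SYT4 was highest in mesenchymal-like clusters: cluster 2 without induction (27.2 CPM), cluster 0 at 15 days (13.2 CPM) and cluster 1 at 45 days (23.9 CPM). In mural-like cells SYT4 was at 5.91, 2.21 and 1.43 CPM. SV2A was highest in endothelial-like cluster 13 at 15 and 45 days (35.9 and 27.6 CPM) and in mural-like cluster 6 without induction (20.3 CPM). SNAP25 was highest in epithelial-like cluster 10, a basal-type cluster with KRT5, KRT15 and TP63, at 19.9 and 15.3 CPM in the induced libraries. Without induction it was highest in cycling-like cluster 11 at 10.2 CPM, against 6.81 CPM in cluster 10. VAMP2 was highest in mesenchymal-like cluster 12 at 15 and 45 days (214 and 225 CPM) and in mesenchymal-like cluster 8 without induction (169 CPM). SYP was highest in mural-like cluster 7 at 7.14 CPM without induction and 9.94 CPM at 15 days, and in endothelial-like cluster 17 at 13.5 CPM at 45 days, from 4 UMIs. STX1A was highest in mesenchymal-like cluster 14 without induction (6.30 CPM) and in endothelial-like cluster 17 at 45 days (10.15 CPM, from 3 UMIs). At 15 days it was highest in unnamed cluster 23, at 16.55 CPM from 12 UMIs, or 54.0% of its neuron-like level. SYN1 had 0 UMIs in endothelial-like cells of all 3 libraries.

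In neuron-like cells most genes of the wider neuronal release lists were also called higher, beside 18.9% and 20.8% of all genes. Of 13 other neuronal SNARE and vesicle genes compared at 15 days, 11 were called higher than in other cells, and 10 of 11 at 45 days. RAB3B, a close relative of RAB3A, was at 209 and 197 CPM in neuron-like cells, against 14.0 and 2.51 CPM, while SYNGR1 was not called. Of the priming and fusion regulators 11 of 13 and 11 of 12 were called higher. CPLX1, a complexin that clamps SNARE bundles, had the largest ratio at 181 against 4.35 CPM and 189 against 3.61 CPM. Among the other synaptotagmins 8 of 9 were called higher in both libraries, with SYT11 at 303 and 248 CPM against 10.2 and 9.45 CPM. Active zone genes, which build the release site, were called higher for 13 of 14 in both, with PCLO at 124 and 118 CPM against 1.89 and 1.70 CPM. Endocytosis genes were called higher for 6 of 12 in both. The median log2 ratio was 3.24 and 3.57 for the members and 0.13 and 0.28 for all genes compared.

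The SNAREs and vesicle proteins that most cells use were mixed, with median log2 ratios of 0.03 and 0.05. Of 16 and 17 compared, 1 and 3 were called higher: STX12 in both libraries, at 123 against 39.8 CPM and 144 against 37.4 CPM, and STX3 and STX7 at 45 days, beside the same 18.9% and 20.8% of all genes. In the other direction 5 were called lower in both libraries: VAMP3, VAMP5, VAMP8, SNAP23 and SYPL1, beside 16.2% and 11.8% of all genes called lower. SNAP23, the broadly expressed relative of SNAP25, was at 5.08 and 7.88 CPM in neuron-like cells, against 43.3 and 38.5 CPM in other cells. SYPL1, a relative of SYP, was at 15.1 and 19.9 CPM against 93.6 and 93.7 CPM. In whole libraries, 11 of 49 other release genes compared were called higher at 15 days than without induction, among them RAB3B (2.01 and 37.0 CPM) and CPLX1 (2.71 and 25.2 CPM), and 3 of 44 at 45 days (RAB3B, CPLX1 and SYT11), beside 4.42% and 1.69% of all genes. Within neuron-like cells RPH3A, a Rab3 effector, was at 54.0 CPM at 15 days and 16.7 CPM at 45 days, and SYT2 at 47.2 and 17.3 CPM.

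The genes most like each member were found by Pearson r of log2(CPM + 5) over the 21 library by class sums with at least 50 cells, among 6891 genes that reached 50 CPM in any of them. The sums share libraries and depth, and the neuron-like class sets much of every r. SNAP25 was most like KIF5A (r = 0.98), SCN2A and REEP2. SYT1 was most like DCLK1 (r = 0.96), ST8SIA1 and CBLN2, and SYT4 most like FXYD7, KCNA1 and MIAT. RAB3A was most like ATP6V1G2, TM2D3 and DCX, and SYP most like TRH, DGKI and SMIM18. VAMP2 was most like ASB8, SLC17A7 and NACAD, SYN1 most like SCN2A, CTNNA2 and RUNDC3B, STX1A most like BTBD8, NHLH2 and TMOD1, and SV2A most like TBCB, CNST and APBB1.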

How the data were processed

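Single cells of day 45 blood vessel organoids were profiled by 10x 3′ v3 chemistry, with 3 libraries and 1 library per group, as the labels give them. The deposited values are raw UMI counts per gene and barcode with no normalization; per the submitters' processing notes they came from Cell Ranger 3.0.0 on GRCh38, and the file headers name version 3.0.1. The sources used here do not give the gene models counted; 33456 of 33538 identifiers were found in GENCODE 29, which gave the coordinates. The files held 10232, 5962 and 10765 barcodes and 59879923, 49488425 and 64171327 UMIs for none, 15 and 45 days. VAMP2 overlaps another counted gene on its strand, so its counts could be shared with it. No column of another series was found (0 columns).

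Doublets were removed by the share of simulated doublets among neighbours, at 0.8% of cells per 1000 passing barcodes (7.09%, 4.24% and 7.72% of cells). Cells were clustered together with scanpy 1.11.5 (totals of 10000, 2000 variable genes, 30 components, 15 neighbours, Leiden resolution 1.0, 24 clusters). A class name first needed 3 markers and 1 in 3 of its set, each at least 2-fold higher and in at least 10% of cells. Leftover clusters were set against named clusters other than the mesenchymal, mural and cycling ones, and named mesenchymal-like if 3 mesenchymal markers passed there. Clusters 3 and 4, named so, met 0 of 12 against all other cells. Clusters 9 and 23 lost their names because their top 10 genes held more markers of another set, so 2 were unnamed. Cluster 9 (953 uninduced cells) met 7 of 12 mesenchymal markers but is not in that class. Rebuilt names can differ from the study's. UMIs were summed and scaled to CPM. Levels carry exact Poisson, folds exact conditional binomial and shares exact Clopper-Pearson 95% intervals, and a share of 0 a limit of 3 cells; these cover counting error only, leaving out differences between organoids, captures and cells. On counts simulated with counting error alone, the 2-fold calls recovered 95.3% to 98.0% of changes of 3-fold or more and called 0 unchanged genes. The changes were put into genes at 10 CPM or more. The simulation held no differences between organoids, captures or cluster mixtures, so it cannot show how often these lead to a call.

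The members, lists, marker sets and naming rule were chosen with earlier results of these data known. All 9 members were named; of each list the genes with the highest neuron-like level or the largest or smallest ratio were eligible, and for likeness the 3 nearest genes of each member. VAMP3, VAMP5, VAMP8, SNAP23, SYPL1, STX3, STX7, RPH3A and SYT2 were named after their values were seen. Alternatives covered the filter, doublets, resolution, added CPM, expression floor, scaling, thinning depth and class definition. The restriction to cells without marker UMIs and the weighting of clusters by the uninduced library were chosen after seeing the data.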

Additional observations from a re-analysis of the deposited data

Results flagged for a closer look

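Barcodes outside the cells analysed also held the release genes. In barcodes that failed the cell filter, the 9 genes summed to 650.4 CPM at 15 days (608 to 695; 659 barcodes) and 605.9 CPM at 45 days (562 to 652; 1121 barcodes), above the 130 CPM (114 to 147; 1374 barcodes) of the uninduced library. NEFL, the neuronal filament gene, was at 518 and 535 CPM in the same barcodes, against 2.56 CPM. In barcodes removed as doublets, the 9 genes summed to 384.2 CPM at 15 days (225 barcodes) and 395.9 CPM at 45 days (744 barcodes), above 209 CPM without induction (628 barcodes), with NEFL at 251 and 163 CPM against 15.7 CPM. These values were picked out because they lie in data that no comparison above uses and exceed the uninduced library; what the barcodes are was not tested.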

How the results depend on the processing

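With 1 library per group, no alternative gives an error between organoids, and members with few UMIs have wide intervals. No paired analysis was possible because each group is 1 library; leaving out replicates was likewise not possible, and the planned protein comparison was not run. Among values that answer a comparison, 72 alternatives kept the value within its limits and 18 moved it. The number of members called higher than none was 6 at 15 days and 4 at 45 days, of 7 compared in each. With a floor of 50 CPM it was 3 and 1. Without neuron-like cells it was 1 and 1, of 4 compared in each, beside 1.96% and 0.753% of all genes. The member called lower at 45 than at 15 days became 0 without neuron-like cells. The share of neuron-like cells with at least 3 members, 73.0% and 72.6%, was 79.9% and 80.9% without thinning, 35.0% and 38.2% at 1000 UMIs and 95.3% and 89.9% at 4000 UMIs. Other release genes called higher were 11 at 15 days and 3 at 45 days; a floor of 50 CPM gave 0 and 0, no floor gave 20 at 15 days, and 1 CPM added gave 7 at 45 days. By construction, a higher floor compares fewer genes and deeper cells show more members. The cause of the other shifts was not tested. Under the other floors and added CPM, the numbers compared and the shares of all genes called are not given here, so those counts have no background. With clusters weighted as in the uninduced library, a choice made after seeing the data, the log2 ratios outside neuron-like cells were 0.84 and 0.76 for SYT1 (1.47 and 1.25 without the weights) and 0.53 for RAB3A at 45 days (0.88). Of 351 alternatives for single genes, 282 kept the value, 68 moved it and 1 reversed it: SYT4 at 15 days against none had a log2 ratio of -0.26 without neuron-like cells. No doublet removal, other resolutions and other class definitions gave SYT1 outside neuron-like cells log2 ratios of 1.44 to 1.48 at 15 days and 1.23 to 1.28 at 45 days. Other cell filters were not run for this value. A count of at least 5 of 15 neuron markers per thinned cell, in place of clusters, gave 1 of 7888 uninduced cells, 243 cells (5.07%) of the 15 day and 219 (2.60%) of the 45 day library.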

Other observations

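Outside neuron-like cells, patterns were compared over 57 library by cluster sums, a choice made after seeing the values. The sums share libraries and depth, so each r is a description. SYT1 was most like NPY1R (r = 0.85), FOXC2 (r = 0.83) and STMN2 (r = 0.83), none of which is among the genes most like it when neuron-like cells are included. RAB3A was most like CCNI (r = 0.82). Between members, SYT1 and RAB3A had the highest r (0.65) and SYT4 and SYP the lowest (-0.30).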
